A study of Mus musculus with 8 samples.

Results

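Line 2 is 1 of the 3 mouse induced pluripotent stem (iPS) cell lines of this series, and its 2 arrays were compared with the 4 arrays of the other iPS lines. The arrays were chosen by their titles (iPS cell line2 against iPS cell line1 and iPS cell line3). Thus 6 of the 8 arrays of the series entered the comparison, and the 2 arrays of an embryonic stem (ES) cell line served only the estimate of spread. Per the labels, every line was of C57BL/6 background and male, and RNA was taken from cells of passage 7 to 10. All were kept in N2B27, a serum-free medium, with mouse leukaemia inhibitory factor (LIF), which holds mouse pluripotent cells in an undifferentiated state, and no treatment separated the groups. The series title calls the iPS cells integration-free, meaning that no reprogramming vector remained in the genome. Each group was 1 line, so a difference between lines cannot be told apart from a difference between the cultures or harvests of those lines. The titles call the 2 arrays of a line biological replicates, and no label says that they came from separate cultures, so p-values measure only how far these arrays spread, which may be technical.

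Cells that were reprogrammed by the same method can still differ in metabolism and growth, and oxygen sensing is a pathway that reaches both. In that pathway prolyl hydroxylases of the Egln family mark the alpha subunits of hypoxia-inducible factors (HIF) when oxygen is plentiful, and the Vhl protein then sends them to degradation. When oxygen is short, or the hydroxylases are blocked, HIF accumulates with its partner Arnt, binds a core motif in promoters and raises genes of glucose uptake, glycolysis, angiogenesis and mitophagy. ES and iPS cells rely strongly on glycolysis in any case, and they also keep high rates of ribosome production under Myc.

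Line 2 stood apart from the other lines in many genes. Signals were compared as log2(signal + 12), where 12 is close to the 20th percentile of all signals, so that log2 differences of dim genes are understated. Of 13570 genes tested, 4576 (33.7%) differed between line 2 and the equally weighted mean of lines 1 and 3 at an adjusted p under 0.05 (limma, Benjamini-Hochberg over all genes, two-sided). Such genes are termed called. Line 2 was higher in 2757 genes (20.3%) and lower in 1819 (13.4%). Of the genes tested, 582 (4.29%) were called with at least a 2-fold difference, and of these 469 (3.46%) were higher and 113 (0.833%) lower. In 4423 of the called genes both line 2 arrays lay beyond all 4 arrays of the other lines; among all genes tested, called or not, they lay above the 4 in 29.3% and below in 18%. The same direction was called against line 1 alone, against line 3 alone and against their mean in 2780 genes (20.5%), 1649 higher (12.2%) and 1131 lower (8.33%). Against line 1 alone 3287 genes (24.2%) were called, 14.3% higher and 9.9% lower. Against line 3 alone 4374 (32.2%) were called, 19.7% higher and 12.6% lower. Lines 1 and 3 differed from each other in 194 genes (1.43%), with line 1 higher in 1.07% and lower in 0.361%. Set against the mean of the other 2 iPS lines in the same way, line 3 gave 2777 calls (20.5%) and line 1 gave 416 (3.07%), and these contrasts share all 6 arrays with that of line 2. When only the 3 line means were used as samples, which makes lines 1 and 3 the replicates, 2166 genes were called, 1371 higher and 795 lower.

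**Figure D1:**
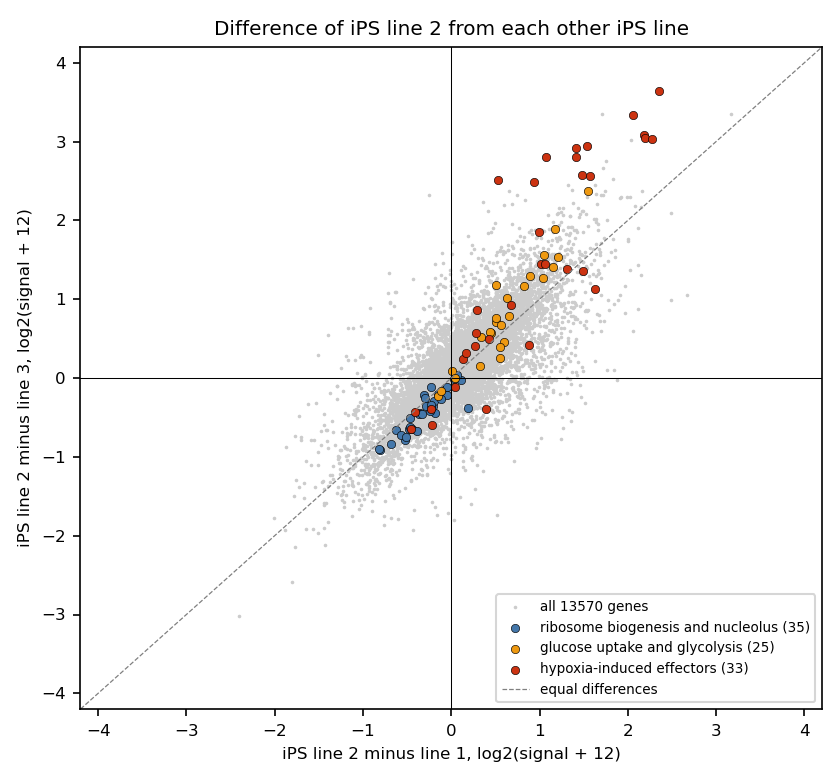
Log2 difference of iPS line 2 from line 1 (horizontal axis) and from line 3 (vertical axis), 1 point per gene for the 13570 genes tested, on the log2(signal + 12) scale; both axes share the arrays of line 2. Most of the 33 hypoxia-induced effectors and the 25 glycolysis genes lie at upper right, above the line of equal differences, and the 35 ribosome biogenesis genes lie mainly at lower left.

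The arrays of the 3 lines had the same trimmed mean signal, but the median signal was 62.3 and 64.3 in line 2 and between 54.1 and 59.1 in lines 1 and 3. RNA quality was read from control probe sets at the 3' and 5' ends of Actb and Gapdh. The 3' to 5' signal ratio of Actb reached 1.74 and 1.79 in line 2 and at most 1.60 in lines 1 and 3, and for Gapdh the ratios were 0.915 and 0.946 against 0.864 to 0.935. These differences run with every comparison of line 2, and their part in the results was not tested. Over all genes the median log2 difference was 0.083. Centring the arrays on their medians moved it to -0.047, and then 1666 genes were higher and 2582 lower, so 39.2% of calls were higher in place of 60.2%. With quantile normalization 2222 genes were higher and 2039 lower, which is 52.1% higher. Arrays of 1 line correlated at 0.983 to 0.984 over genes, arrays of lines 1 and 3 at a mean of 0.982, and those of line 2 at a mean of 0.972 with line 1 and 0.967 with line 3.

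The labelled cell type was checked with its markers. All 10 pluripotent-cell markers were above the signal floor of 37.1 in iPS arrays, and 2 were called higher, 2 lower and 6 not called. These were 20% each, near the 20.3% and 13.4% of all genes. Of 26 fibroblast and feeder-cell markers, 7 were at or below the floor on all 6 iPS arrays (Col1a1, Col6a1, Postn, Dcn, Twist2, Fap and Cdh11), and the summed signal of the list was 17952 on both line 2 arrays against 15329 to 16573 in lines 1 and 3. Of the 15 that could be tested, 2 were higher and 2 lower (13.3% each, not above the shares of all genes). The higher were Fn1, encoding fibronectin, at a log2 difference of 0.60 ± 0.057, and Pdgfrb, a growth factor receptor, at 2.02 ± 0.27. The lower were Vim, encoding vimentin, at -0.33 ± 0.081, and Snai2, a factor of epithelial to mesenchymal change, at -0.74 ± 0.25. Much of the summed signal came from Fn1, with 11134 and 9834 in line 2. It had 7771 and 7253 in line 1 and 6391 and 6329 in line 3. With Fn1 left out, the sum was lower on both line 2 arrays than on any array of lines 1 and 3. Most of that remainder was Vim, with 5558 and 6896 in line 2, 7126 and 7179 in line 1 and 7807 and 9119 in line 3. With Vim left out as well, the sum was higher on both line 2 arrays than on any other, so the order rested on single genes. The Vim call was lost against line 1 alone, without the variance trend and without the first line 2 array, and the Snai2 call did not hold in 9 of 22 alternatives. Primitive endoderm markers summed to 9320 and 9813 in line 2 against 7825 to 9017, with Cubn and Afp at or below the floor, and trophoblast markers to 9898 and 10373 against 10081 and 10341 in line 1 and 6158 and 6545 in line 3. Neural markers summed to 12572 and 13276 in line 2 and 13815 to 15183 in the other lines. The part of such cells in the results was not tested, and on bulk RNA fewer cells of a type and less RNA per cell cannot be told apart.

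Genes of the oxygen response were widely higher in line 2, and several were among the largest differences of the comparison. Of 33 hypoxia-induced effectors tested, 23 were higher in line 2, 3 were lower and 7 were not called, with a median log2 difference of 1.34 against 0.083 for all genes, and 19 were at least 2-fold higher. Among 25 genes of glucose uptake and glycolysis 19 were higher and 0 lower, with a median of 0.62; centring the arrays gave 19 higher and 2 lower. Both lists were higher against each line alone, 20 and 22 effectors and 19 and 18 glycolysis genes against lines 1 and 3 respectively. Of the 10 HIF factors and oxygen sensors, 5 were higher and 3 lower.

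The transcripts of the main HIF alpha subunits were lower, not higher, in line 2. Hif1a encodes the subunit that drives glycolytic targets, and its signal was 4039.8 and 3800.3 in line 2, 5342 and 5268 in line 1 and 5342 and 5401 in line 3. The 2 line 2 arrays lay below all 4 others, at a log2 difference of -0.44 ± 0.05 (SE; limma adjusted p = 3.6e-05). This was the brightest of 4 probe sets for Hif1a; the second brightest gave -0.45 and the dimmer ones 0.64 and 1.66, and their mean was 0.35 with an adjusted p of 0.111. Epas1 encodes HIF-2 alpha, and its signal was 1818 and 1819 in line 2, 2937 and 2815 in line 1 and 2966 and 2995 in line 3, a log2 difference of -0.68 ± 0.055 (limma adjusted p = 2.41e-06), again with no overlap. Hif3a, a subunit of which short forms can restrain the other factors, was higher at 1.52 ± 0.19, and Arnt, the shared partner, at 0.51 ± 0.086, a call that was lost as the mean of its probe sets (0.20).

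Of the 3 prolyl hydroxylase genes, Egln1 and Egln3 were higher in line 2. Egln1 encodes the main oxygen-dependent prolyl hydroxylase, and its signal was 1771 and 1639 in line 2, 655 and 585 in line 1 and 432 and 376 in line 3. Line 2 was the highest and line 3 the lowest, with no overlap between any of the lines, and the difference from the mean was 1.74 ± 0.095 (limma adjusted p = 1.38e-07). Egln3, a hydroxylase that is itself a strong HIF target, had 1806 and 1750.0 in line 2, 636 and 627 in line 1 and 277 and 298 in line 3, in the same order of lines and at 2.03 ± 0.083 (limma adjusted p = 1.78e-08). Vhl, which marks hydroxylated HIF for degradation, was moderately higher, with signals of 719.7 and 739 in line 2, 518 and 494 in line 1 and 471 and 491 in line 3 and a difference of 0.55 ± 0.086 (limma adjusted p = 0.000364). As the mean of its probe sets the Vhl difference was 0.36 and no longer called (limma adjusted p = 0.0506). Egln2, the third hydroxylase, was lower at -0.32 ± 0.091. That call was lost against line 1 alone, without the variance trend, without the first line 1 array and without the second line 2 array.

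**Figure D2:**
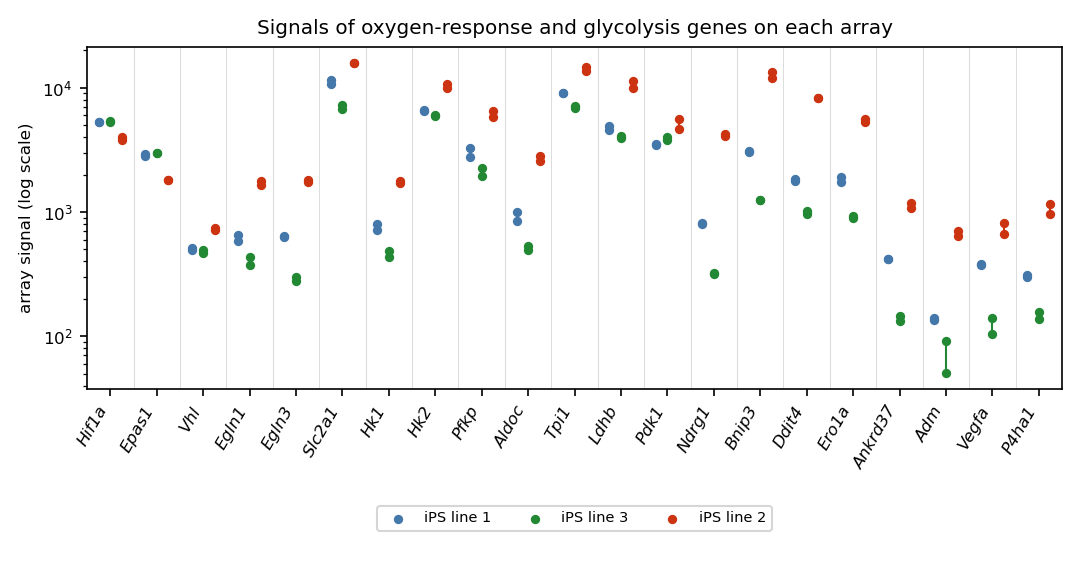
Signal of oxygen-response and glycolysis genes on each of the 6 iPS arrays, on a logarithmic axis, with 1 point per array and a bar joining the 2 arrays of a line. Hif1a and Epas1 lie lowest in line 2, whereas the other genes shown lie highest in line 2, and for most of those line 1 lies above line 3. Signals of different genes come from different probe sets and their heights are not comparable.

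Genes of glucose entry and of many glycolytic steps were higher in line 2. Slc2a1, the basal glucose transporter, had signals of 15739.5 and 15967 in line 2, 10698 and 11598 in line 1 and 6716 and 7286 in line 3, so that line 2 was highest and line 3 lowest, at 0.84 ± 0.055. Slc2a3, the high-affinity transporter, was higher at 0.43 ± 0.059. Of the hexokinases, which trap glucose in the cell, Hk1 had 1699.8 and 1765 in line 2, 716 and 806 in line 1 and 434 and 483 in line 3 and a difference of 1.53 ± 0.083 (limma adjusted p = 1.38e-07), and Hk2 a difference of 0.72 ± 0.048. Phosphofructokinase, the committed step, was higher in its platelet form Pfkp (1.30 ± 0.082) and its liver form Pfkl (1.09 ± 0.12), as was Pfkfb3 (1.15 ± 0.17), which makes its activator. The aldolase Aldoc showed the largest difference of the list, with signals of 2846 and 2578 in line 2, 851 and 996 in line 1 and 494 and 531 in line 3 and 1.96 ± 0.085 (limma adjusted p = 2.7e-08). Line 2 was again clear of both other lines. Further down, Tpi1 (0.83 ± 0.049) and Pgk1 (0.64 ± 0.05) were higher.

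Genes of pyruvate and lactate handling were also higher. Ldha, which makes lactate and is a classical HIF target, was higher at 0.51 ± 0.051. Ldhb, the subunit that favours the reverse reaction, was higher by more, with signals of 11403 and 9882 in line 2, 4909 and 4603 in line 1 and 3951 and 4065 in line 3 and 1.28 ± 0.063 (limma adjusted p = 8.37e-08). Slc16a3, which exports lactate, was higher at 1.37 ± 0.27 and Pdk1, which switches off pyruvate entry into the mitochondrial cycle, at 0.47 ± 0.071. Pdha1, the enzyme that Pdk1 restrains, was not called (-0.14, limma adjusted p = 0.0755), but was called lower with centring (-0.27), as the mean of its probe sets (-0.21) and without the second line 3 array (-0.18). Eno2 and Pdk2 had no probe set with 1 symbol that passed the filter on low signals, and Gpi1 and Eno1 had none with 1 symbol. Gapdh was not among the genes tested. Its control probe sets were left out before that filter, so its absence does not show a low signal.

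Among the effectors outside glycolysis the leading gene was Ndrg1, a stress-response gene that HIF and Myc are known to regulate in opposite directions. Its signal was 4058 and 4249 in line 2, 809 and 795 in line 1 and 319 and 324 in line 3. The lines did not overlap, and line 2 differed from the mean of the others by 2.998 ± 0.078 (7.99-fold on the same scale; limma adjusted p = 2.28e-10), from line 1 by 2.35 and from line 3 by 3.64. Bnip3 encodes an outer-membrane protein that marks mitochondria for removal, and its signal was 13391 and 12054 in line 2, 3085 and 3017 in line 1 and 1244 and 1259.6 in line 3. Every line 2 array exceeded every other array, at 2.69 ± 0.06 (limma adjusted p = 1.06e-10). Ddit4, which restrains the growth kinase mTORC1, had signals of 8341 and 8279.7 in line 2, 1764 and 1849 in line 1 and 969 and 1018 in line 3 and a difference of 2.62 ± 0.064 (limma adjusted p = 1.7e-10). Vegfa, the main angiogenic factor, had 660.2 and 816 in line 2, 374 and 382 in line 1 and 103 and 140.3 in line 3, at 1.71 ± 0.16 (limma adjusted p = 1.01e-05). Adm, which encodes a vasodilator peptide, had 639.8 and 700.1 in line 2, 136 and 141 in line 1 and 50.2 and 91 in line 3, at 2.63 ± 0.22. Both lay highest in line 2 and lowest in line 3 with no overlap.

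Ero1a, an oxidase for disulfide bonds in the endoplasmic reticulum, had signals of 5588 and 5329 in line 2, 1926 and 1728 in line 1 and 900.1 and 924 in line 3 and a difference of 2.07 ± 0.065 (limma adjusted p = 1.7e-09). Differences near or above 2 on the log2 scale were also found for the transcriptional repressor Bhlhe40 (2.11 ± 0.087), Ankrd37 (2.17 ± 0.11), the glycogen-targeting subunits of protein phosphatase Ppp1r3b (2.65 ± 0.23) and Ppp1r3c (2.24 ± 0.43), and the membrane-binding protein gene Anxa2 (1.94 ± 0.13). Fam162a (1.23 ± 0.054), the cyclin Ccng2 (1.25 ± 0.072) and Mxi1, which competes with Myc for Max (0.46 ± 0.084), were higher by less, and the Mxi1 call was lost as the mean of its probe sets (0.070). Car9, a carbonic anhydrase that is often read as a hypoxia marker, lay near the floor, with signals of 56.5 and 64.8 in line 2, 35.6 and 20.7 in line 1 and 25.9 and 65.6 in line 3, and the lines overlapped (0.65 ± 0.39, limma adjusted p = 0.23). Hilpda (-0.55 ± 0.14), Angptl4 (-0.42 ± 0.1) and Rbpj (-0.31 ± 0.052) were the lower members, the first 2 known for lipid droplet storage and lipase inhibition and the last as the nuclear partner of Notch. Hilpda was no longer called against line 1 alone or without the second line 2 array, and Angptl4 was no longer called without the first.

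Collagen hydroxylases use oxygen as the Egln enzymes do, and several are HIF targets. Of 12 genes tested in a list of such hydroxylases and crosslinking enzymes, 5 were higher and 0 lower (median 0.35). The list also holds Serpinh1, which is no hydroxylase and was 1 of the 5, at 0.32 ± 0.061. Its call was lost with centring. P4ha1, a catalytic subunit of collagen prolyl 4-hydroxylase, had signals of 1151 and 966 in line 2, 297 and 313 in line 1 and 137 and 156 in line 3, a difference of 2.25 ± 0.12 (limma adjusted p = 1.31e-07). Its relative P4ha2 was higher at 1.70 ± 0.22. The lysyl hydroxylase Plod2 was higher at 1.42 ± 0.083. Of 20 oxygen-dependent histone demethylases and TET enzymes 6 were higher and 6 lower (30% each, against 20.3% and 13.4% of all genes). Kdm7a (1.47 ± 0.12) and Kdm4c (0.79 ± 0.08) were higher, whereas Kdm3a, known as a HIF target, was lower at -0.31 ± 0.054, a call that was lost against line 1 alone. Tet2, which oxidises methylated cytosine, was lower at -0.38 ± 0.06, and Jmjd1c at -0.50 ± 0.076, though the mean over the probe sets of Jmjd1c was 0.062.

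Promoters are printed for the 5 higher genes of these lists that had the smallest adjusted p among those holding ACGTG, to show where the core of the hypoxia response element lies. The windows run from 250 bases before to 50 bases after the start of the gene and come from RefSeq on build GRCm38.p6. Bnip3 is at chr7:138909457-138909756 (minus strand), Ddit4 at chr10:59951721-59952020 (minus strand), Ero1a at chr14:45318523-45318822 (minus strand), Egln3 at chr12:54203825-54204124 (minus strand) and Aldoc at chr11:78322823-78323122 (plus strand), each printed in the direction of the gene. Capitals mark ACGTG or GCGTG on the printed strand and CACGT or CACGC, their forms on the opposite strand; where ACGTG and CACGT overlap they run together as CACGTG, which is also the E-box that Myc and Bhlhe40 bind.
Bnip3: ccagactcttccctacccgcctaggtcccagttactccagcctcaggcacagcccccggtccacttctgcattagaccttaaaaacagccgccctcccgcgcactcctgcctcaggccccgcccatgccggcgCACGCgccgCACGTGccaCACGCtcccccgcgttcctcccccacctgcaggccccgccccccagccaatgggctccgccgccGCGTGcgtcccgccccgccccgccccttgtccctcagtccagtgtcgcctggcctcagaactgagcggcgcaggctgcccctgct
Ddit4: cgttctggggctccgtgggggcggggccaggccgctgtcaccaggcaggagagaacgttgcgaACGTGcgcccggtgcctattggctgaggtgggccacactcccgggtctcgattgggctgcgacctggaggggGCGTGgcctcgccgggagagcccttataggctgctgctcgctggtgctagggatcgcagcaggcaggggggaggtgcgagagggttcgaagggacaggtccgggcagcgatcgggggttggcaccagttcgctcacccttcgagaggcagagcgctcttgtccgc
Ero1a: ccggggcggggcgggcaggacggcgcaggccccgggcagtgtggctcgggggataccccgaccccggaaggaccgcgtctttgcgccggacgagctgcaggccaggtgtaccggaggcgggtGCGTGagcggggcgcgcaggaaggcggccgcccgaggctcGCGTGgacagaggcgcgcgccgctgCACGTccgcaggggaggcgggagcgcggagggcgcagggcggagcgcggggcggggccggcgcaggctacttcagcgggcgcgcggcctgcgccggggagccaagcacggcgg
Egln3: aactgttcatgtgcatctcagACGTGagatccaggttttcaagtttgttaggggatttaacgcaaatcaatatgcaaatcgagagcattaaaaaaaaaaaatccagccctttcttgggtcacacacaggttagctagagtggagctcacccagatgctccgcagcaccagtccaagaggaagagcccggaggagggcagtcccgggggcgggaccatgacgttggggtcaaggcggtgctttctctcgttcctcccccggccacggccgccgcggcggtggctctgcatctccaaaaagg
Aldoc: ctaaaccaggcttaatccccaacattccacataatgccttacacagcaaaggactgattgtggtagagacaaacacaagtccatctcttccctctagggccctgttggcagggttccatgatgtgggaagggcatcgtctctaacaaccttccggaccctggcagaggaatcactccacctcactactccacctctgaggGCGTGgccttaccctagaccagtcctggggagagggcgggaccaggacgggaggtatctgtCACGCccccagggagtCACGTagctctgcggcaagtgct

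The window of Bnip3 held 5 such cores, among them an overlapping pair that begins 108 bases before the start, and those of Ero1a and Aldoc held 3 each. Ddit4 held 2, at 187 and 115 bases before the start, and Egln3 held 1, at 229 bases. Aldoc has 2 promoters in the table and the first was used. Among effectors with a promoter in the table, 21 of 26 (80.8%) held ACGTG or GCGTG on either strand, and among glycolysis genes 19 of 24 (79.2%), against 61.4% of 10935 promoters of tested genes and 43.8% of all 27025 promoters in the table. The stricter core ACGTG was in 15 of 26 (57.7%) and 11 of 24 (45.8%), against 25.2% of tested genes. Over all genes, ACGTG or GCGTG was in 66.3% of promoters of called higher genes, 66.7% of called lower genes and 58.8% of those not called, so the core did not separate the directions. A match describes these letters and is not a measured site.

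Lines 1 and 3 also differed in the oxygen-response genes, with line 1 usually the higher. Line 1 was above line 3 in 24 of 33 effectors, of which 13 were called in that direction (1.07% of all genes were), with a median log2 difference of 0.39. Among glycolysis genes it was above line 3 in 18 of 25, 6 of them called. Over all genes tested line 1 was above line 3 in 7205 of 13570. The order was not particular to the oxygen-response genes. Line 1 was also above line 3 in 18 of 21 keratin and tight junction genes, 18 of 22 Nodal and BMP genes and 21 of 28 actin genes. In mitochondrial ribosomal proteins it was above in only 15 of 76. Among called genes whose line 2 arrays lay beyond all others, clone names aside, the widest gap was in Stc2, a secreted glycoprotein. Its signals were 401 and 356 in line 2, 285 and 234 in line 1 and 56.5 and 55.5 in line 3. Line 1 exceeded line 3 by 1.99 (limma adjusted p = 0.000351), and line 2 exceeded the mean by 1.52 ± 0.17 but line 1 by only 0.53, a difference that was not called (limma adjusted p = 0.0765). Ndufa4l2, a mitochondrial protein known as a HIF target, showed the same order, with 259.7 and 237 in line 2, 69 and 66.1 in line 1 and 8.05 and 20.6 in line 3 and 2.53 ± 0.32 (limma adjusted p = 7.61e-05), though it stood on no list here. The ribosome biogenesis genes had the opposite order, with line 1 below line 3 in all but 3 of 35 and 0 of them called between those lines.

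**Figure D3:**
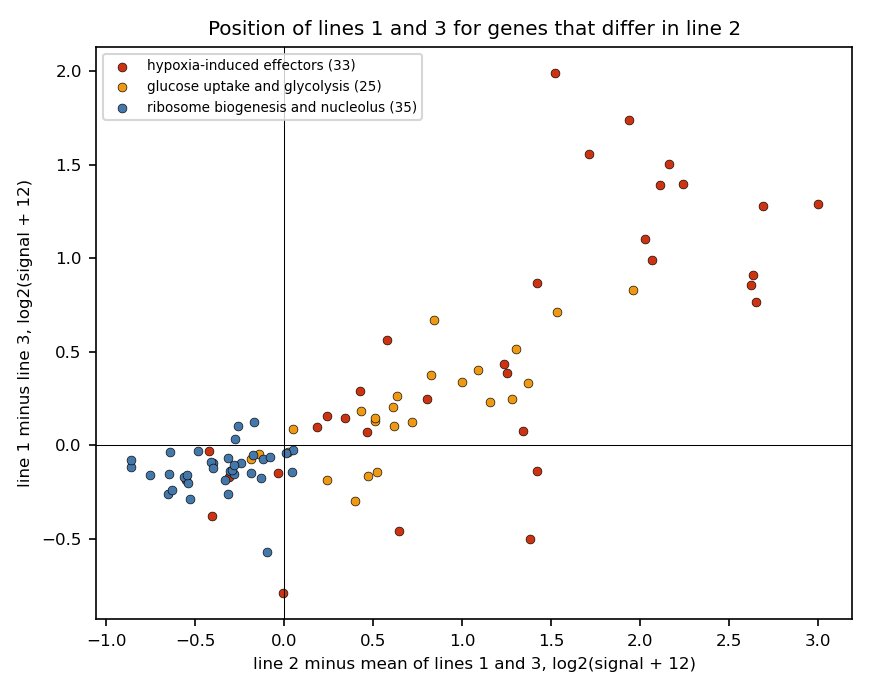
Log2 difference of line 2 from the mean of lines 1 and 3 (horizontal axis) and of line 1 from line 3 (vertical axis), on the log2(signal + 12) scale, 1 point per gene for hypoxia-induced effectors (33), glycolysis (25) and ribosome biogenesis (35). Line 1 lay above line 3 in 24 of the 33 effectors, against 7205 of the 13570 genes tested, and the points of ribosome biogenesis cluster below 0 on both axes.

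Immediate early genes, which respond to growth factors and stress within minutes, were higher for the most part. Of 28 tested, 16 were higher, 4 lower and 8 not called, with a median of 0.47, and the counts were 15 and 5 under quantile normalization and under centring. Jun, a subunit of the AP-1 factor, had signals of 2537 and 2514 in line 2, 811 and 797 in line 1 and 486 and 494 in line 3, with no overlap, at 1.99 ± 0.073 (limma adjusted p = 8.24e-09). Its partner Fos had 8567 and 8453 in line 2, 4817 and 4559.9 in line 1 and 3903 and 3718 in line 3, at 1.01 ± 0.052 (limma adjusted p = 1.04e-07), and Fosb a difference of 1.53 ± 0.25. Egr1, a zinc finger factor of the serum response, had 5601 and 6327 in line 2, 2608 and 2669 in line 1 and 2881 and 3425 in line 3, at 1.04 ± 0.075, and here line 1 was the lowest. Klf6 (1.04 ± 0.08), Atf3 (1.39 ± 0.16), Ier3 (0.96 ± 0.12) and Dusp1, a phosphatase that ends kinase signals (0.74 ± 0.061), were also higher. The cells were collected with trypsin, per the labels' protocols, and no source used here gives the time from dissociation to lysis.

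The largest fall in that list was in Myc. Myc, which drives growth and ribosome genes, had signals of 169.7 and 134 in line 2, 353 and 296 in line 1 and 426 and 320.3 in line 3, so that both line 2 arrays lay below all others, at -1.13 ± 0.15 (limma adjusted p = 0.000119). Its partner Max was lower at -0.35 ± 0.085, a call that was lost without the second line 2 array. Of the 13 genes of the Myc, Max and Mxd network 1 was higher and 2 lower. Ribosome biogenesis genes were lower in 26 of 35, higher in 0 and not called in 9, with a median of -0.32; 28 were lower under quantile normalization and 31 with centring. Nop16, a nucleolar protein under Myc control, had signals of 1643 and 1730.0 in line 2, 2734 and 2671 in line 1 and 2934 and 3098 in line 3, at -0.76 ± 0.058 (limma adjusted p = 1.81e-06). The RNA polymerase I subunits Polr1e, with 562 and 487 in line 2, 896 and 976 in line 1 and 987 and 989.7 in line 3, and Polr1b were lower at -0.86 ± 0.084 and -0.86 ± 0.094. Lower too were Wdr12 (-0.54 ± 0.05), which matures the large subunit, Rrp12 (-0.64 ± 0.094), Nip7 (-0.55 ± 0.05) and the helicase Ddx21 (-0.65 ± 0.099). The Nip7 call was lost as the mean of its probe sets (-0.15). In each the line 2 arrays lay below the other 4.

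Mitochondrial ribosomal proteins were lower in 37 of 76, higher in 3 and not called in 36, with a median of -0.18. The lower count was 31 under quantile normalization, 49 with centring and 23 without the second line 2 array. Mrps18b had signals of 2693 and 2290.4 in line 2, 4086 and 3581 in line 1 and 4210.1 and 4376 in line 3, at -0.70 ± 0.074 (limma adjusted p = 2.17e-05). Lower too were Mrps34, Mrpl20 and Mrpl12, at -0.57 ± 0.059, -0.52 ± 0.064 and -0.44 ± 0.048. The proteins of the cytosolic ribosome itself mostly were not called, 41 of 48, with 4 higher and 3 lower; with centring 0 were higher and 5 lower. Oxidative phosphorylation subunits had no settled direction, since 9 of 48 were higher and 1 lower, but 3 were higher and 6 lower with centring. Ndufa6 of complex I (0.46 ± 0.06) and Sdhc of complex II (0.44 ± 0.075) were among the higher ones.

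Cell cycle genes were divided. Cdkn1a, which encodes the inhibitor p21, had signals of 3189 and 3242 in line 2, 1636 and 1207 in line 1 and 1234 and 1293 in line 3, at 1.26 ± 0.098 (limma adjusted p = 1.87e-06), and Cdkn1b, encoding p27, was higher at 0.95 ± 0.14, a call that was lost as the mean of its probe sets (0.47). Cyclin D1 (Ccnd1), which opens the G1 phase, had 2730.1 and 2832 in line 2, 4376 and 4428 in line 1 and 5303 and 5184 in line 3, at -0.79 ± 0.054 (limma adjusted p = 9.02e-07). Another D-type cyclin, Ccnd2, was lower at -1.15 ± 0.17. E2f1, a factor of S phase entry, was higher at 0.64 ± 0.079. Of 22 G1 genes, 6 were higher and 3 lower (27.3% and 13.6%), near the 20.3% and 13.4% of all genes. Of 22 genes of the p53 list, to which Cdkn1a also belongs, 10 were higher and 4 lower (45.5% and 18.2%). With centring the lower counts of the G1 and p53 lists were 5 and 5. In the p53 list Rrm2b (0.92 ± 0.11), the polymerase Polk (0.76 ± 0.12) and the p53 inhibitor Mdm2 (0.43 ± 0.066) were higher and Gadd45a lower (-0.67 ± 0.068), and the Mdm2 call was lost as the mean of its probe sets (0.18). DNA replication genes were higher in 9 and lower in 9 of 44 (20.5% each, against 20.3% and 13.4% of all genes). Among them were the kinase Cdc7 (0.85 ± 0.062) and the origin subunits Orc4 (0.55 ± 0.062) and Orc2 (-0.63 ± 0.064). The Orc4 call was lost as the mean of its probe sets (0.028).

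**Figure D4:**
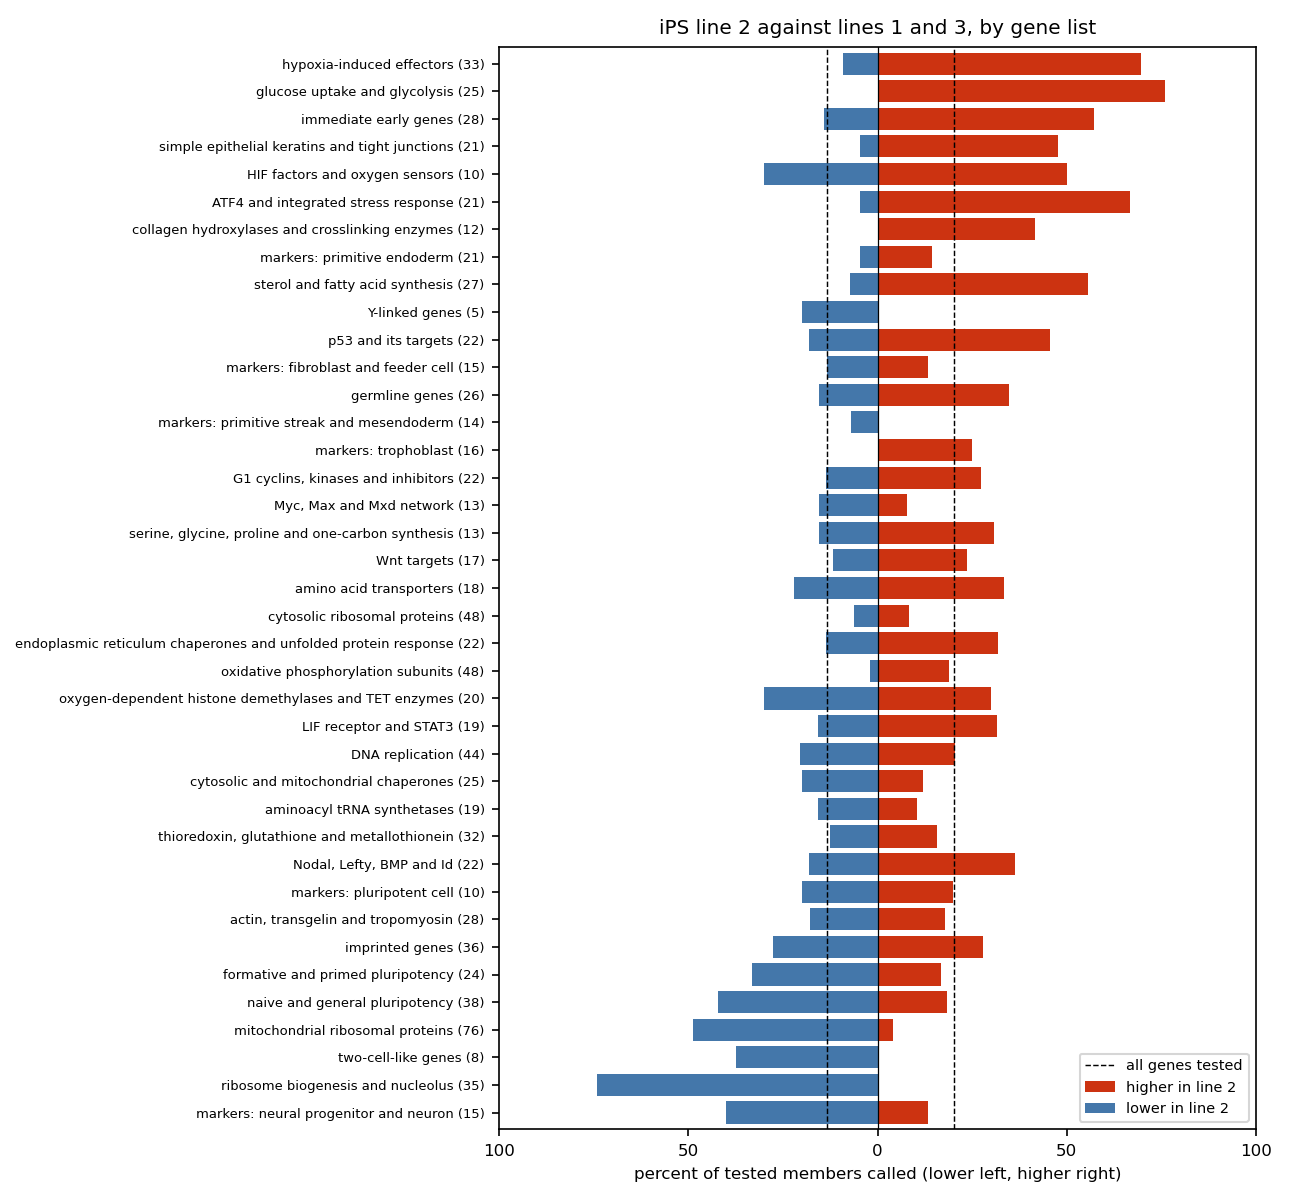
Percent of tested members of each list that were called higher (red, to the right) or lower (blue, to the left) in line 2 against the mean of lines 1 and 3, with the number tested in parentheses and the lists ordered by median log2 difference; dashed lines mark all genes tested, 20.3% higher and 13.4% lower. Glycolysis, hypoxia-induced effectors and the ATF4 list have the longest bars to the right, and ribosome biogenesis and mitochondrial ribosomal proteins to the left.

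Genes of the integrated stress response, in which the factor ATF4 is translated when the initiation factor eIF2 is phosphorylated, were higher in 14 of 21 and lower in 1, with a median of 0.37. Atf4 itself had signals of 9864 and 9549.9 in line 2, 8158 and 7602 in line 1 and 7417 and 6966 in line 3, at 0.37 ± 0.056 (limma adjusted p = 0.000306). Ddit3, the pro-apoptotic factor CHOP, had 619.9 and 640.3 in line 2, 295 and 284 in line 1 and 266 and 263 in line 3, at 1.15 ± 0.1 (limma adjusted p = 5.63e-06). Nupr1, which encodes a stress-induced chromatin protein, had 3052 and 3159 in line 2, 1578 and 1560.1 in line 1 and 1147 and 1241 in line 3, at 1.18 ± 0.065. In all of these the line 2 arrays were above the others. Vldlr, a lipoprotein receptor, showed the largest difference of the list, 596 and 618 in line 2, 152 and 174 in line 1 and 90 and 100.5 in line 3, at 2.18 ± 0.15. Chac1, which degrades glutathione (1.38 ± 0.14), and the pseudokinase Trib3 (0.79 ± 0.11) were higher. Cth, which makes cysteine, was the lower member, with 3404 and 3422 in line 2, 4770.3 and 4608 in line 1 and 5018 and 5211 in line 3, at -0.52 ± 0.05.

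The C/EBP-ATF element to which ATF4 binds was looked for as TGATGCAA or TGATGAAA on either strand. It was in 6 of 19 promoters of the list (31.6%) against 1.06% of tested genes. The windows of Nupr1, chr7:126625421-126625720 (minus strand), and Herpud1, chr8:94386179-94386478 (plus strand), are printed since they had the smallest adjusted p among higher members with a match, from the same RefSeq table and build; capitals mark TTGCATCA, the form of TGATGCAA on the opposite strand.
Nupr1: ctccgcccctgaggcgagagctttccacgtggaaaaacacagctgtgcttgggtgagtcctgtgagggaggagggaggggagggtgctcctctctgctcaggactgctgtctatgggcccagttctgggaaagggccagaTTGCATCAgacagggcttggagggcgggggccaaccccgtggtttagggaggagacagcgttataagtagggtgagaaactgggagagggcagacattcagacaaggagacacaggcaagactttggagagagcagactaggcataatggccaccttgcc
Herpud1: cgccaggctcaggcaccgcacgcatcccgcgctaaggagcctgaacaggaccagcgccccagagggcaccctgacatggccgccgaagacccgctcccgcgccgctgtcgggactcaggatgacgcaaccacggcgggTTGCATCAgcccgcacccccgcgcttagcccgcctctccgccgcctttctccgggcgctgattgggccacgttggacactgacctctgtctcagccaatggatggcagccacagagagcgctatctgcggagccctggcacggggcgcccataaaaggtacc

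The element begins 110 bases before the start in Nupr1 and 112 bases in Herpud1. Herpud1, a membrane protein of protein quality control in the endoplasmic reticulum, had signals of 795 and 754 in line 2, 396 and 417 in line 1 and 379 and 351 in line 3, at 0.99 ± 0.094 (limma adjusted p = 1e-05). Amino acid genes that ATF4 is known to serve had members in both directions. Serine, glycine and one-carbon synthesis had 4 higher and 2 lower of 13, with Aldh18a1 of proline synthesis (0.58 ± 0.061) and mitochondrial Mthfd2 (0.53 ± 0.062) higher and Shmt1 lower (-0.39 ± 0.057). Of 18 amino acid transporters 6 were higher and 4 lower (33.3% and 22.2%, against 20.3% and 13.4% of all genes). The arginine carrier Slc7a3 had 2481 and 2326 in line 2, 4916 and 5158 in line 1 and 5235 and 6024 in line 3. Its fall was the largest among these 18, -1.14 ± 0.067 (limma adjusted p = 2.25e-07). The tRNA synthetases were not called in 14 of 19, with 2 higher and 3 lower (10.5% and 15.8%). Of 22 endoplasmic reticulum genes 7 were higher and 3 lower, with Edem1 of degradation higher (0.55 ± 0.083) and the chaperone Hspa5 not called (-0.046, limma adjusted p = 0.544).

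Lipid synthesis was higher in 15 of 27 genes and lower in 2, with a median of 0.31, or 10 higher and 2 lower with centring. The desaturases make monounsaturated fatty acids. Scd1 had 4349 and 4068 in line 2, 2153 and 2023 in line 1 and 1890.4 and 1745 in line 3, at 1.11 ± 0.066, and Scd2 16708 and 17122 in line 2, 10149 and 9782 in line 1 and 10028 and 9975 in line 3, at 0.76 ± 0.045. Dhcr7, the last enzyme of cholesterol synthesis, had 1419 and 1156 in line 2, 401 and 415 in line 1 and 493 and 405 in line 3, at 1.56 ± 0.14 (limma adjusted p = 7.03e-06). The master factors of the pathway were higher by less, Srebf1 by 0.66 ± 0.08 and Srebf2 by 0.59 ± 0.08, as was the sterol carrier Stard4 (1.12 ± 0.11). The isomerase Ebp was lower at -0.49 ± 0.056.

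Of the core factors of the pluripotency network, Sox2 and Nanog had signals that overlapped between the lines. Pou5f1, which encodes OCT4, had signals of 10646 and 9679.9 in line 2, 11571 and 10681 in line 1 and 11391 and 11226 in line 3, at -0.14 ± 0.054, and was not called (limma adjusted p = 0.0583) although its line 2 arrays lay below the other 4. It was called lower with centring (-0.27), with the stricter floor on low signals, with the replicate number as a block (adjusted p = 0.0397), without the second line 1 array (-0.17) and without the first line 2 array (-0.21). Sox2 had 12152 and 13114 in line 2, 12674 and 12696 in line 1 and 12855 and 13183 in line 3, at -0.026 ± 0.051 (limma adjusted p = 0.745). Nanog had 13856 and 14414 in line 2, 15098 and 13616 in line 1 and 15066 and 13889.5 in line 3, at -0.027 ± 0.064 (limma adjusted p = 0.789). The signs for Sox2 and Nanog turned under quantile normalization, to 0.017 and 0.0085. Klf4, another of the classical reprogramming factors, was higher at 0.24 ± 0.049, a call that was lost against line 1 alone, with centring and without the variance trend. Zfp42, a marker of the naive state, was not called (-0.10 ± 0.066, limma adjusted p = 0.289), but was called lower with centring (-0.23).

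Around this core, 16 of 38 genes of naive and general pluripotency were lower and 7 higher, with a median of -0.11; centring gave 18 lower and 1 higher and quantile normalization 15 and 9. Dppa2, a chromatin protein that keeps developmental and early embryonic promoters open, had signals of 4594 and 4876 in line 2, 10757 and 9952 in line 1 and 11976 and 12278 in line 3, at -1.24 ± 0.052 (limma adjusted p = 1.78e-08). Line 2 was clearly lowest, and the partner protein gene Dppa4 was lower at -0.63 ± 0.071. Nr0b1, an orphan receptor of the OCT4 network, had 2877 and 2442 in line 2, 4598 and 5127 in line 1 and 4811 and 4990.3 in line 3, at -0.88 ± 0.07. L1td1, an RNA-binding protein of pluripotent cells, had 9083 and 9097 in line 2, 13749 and 13657 in line 1 and 15384 and 15070.4 in line 3, at -0.67 ± 0.045. Gdf3, a ligand of the Nodal branch (-0.65 ± 0.053), Utf1 (-0.65 ± 0.13), Lin28a, which blocks let-7 processing (-0.62 ± 0.07), and Gbx2 (-0.67 ± 0.093) were lower. Of the higher members Pecam1, an adhesion molecule of naive cells, had the largest difference (0.71 ± 0.15). The 2-cell-like list had 0 higher and 3 lower of 8.

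**Figure D5:**
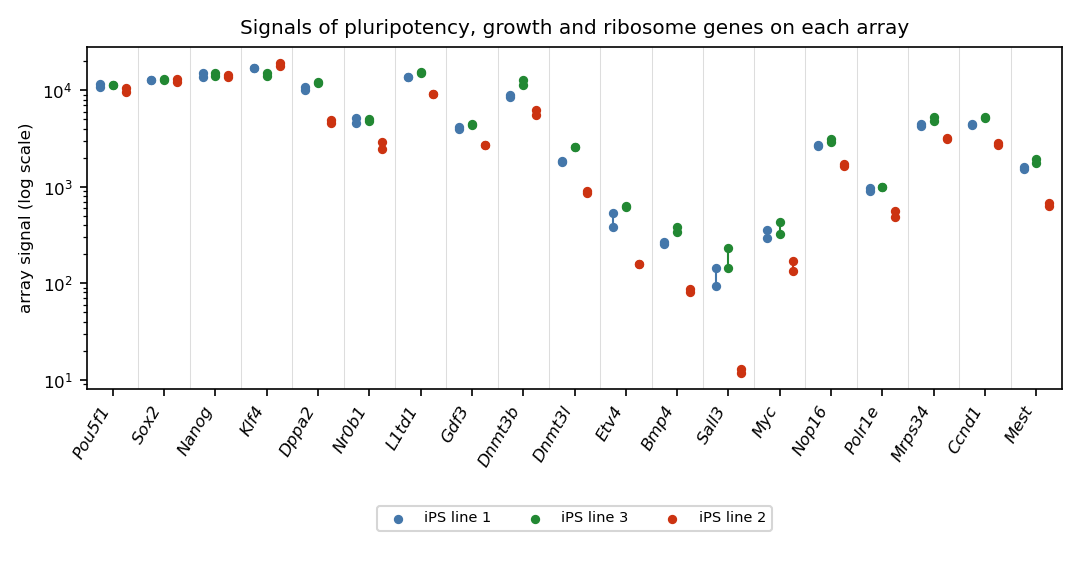
Signal of pluripotency, growth and ribosome genes on each of the 6 iPS arrays, on a logarithmic axis, with 1 point per array and a bar joining the 2 arrays of a line. Sox2 and Nanog overlap between the lines, Pou5f1 lies slightly lower in line 2, Klf4 lies highest in line 2, and the genes from Dppa2 rightward lie lowest in line 2. Heights of different genes are not comparable.

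Genes of the formative and primed states, which follow naive pluripotency in the embryo, were lower in 8 of 24 and higher in 4. Dnmt3b, a de novo DNA methyltransferase, had signals of 5492 and 6274 in line 2, 8844 and 8537 in line 1 and 11417 and 12648 in line 3, at -0.80 ± 0.063 (limma adjusted p = 2.24e-06). Its cofactor gene Dnmt3l, counted with the germline genes, had 897 and 864 in line 2, 1838 and 1818 in line 1 and 2592 and 2595 in line 3, at -1.30 ± 0.06 (limma adjusted p = 4.75e-08). Line 2 lay lowest and line 3 highest in both. Etv4, a factor known to respond to fibroblast growth factor signalling, had 159 and 157 in line 2, 535 and 381 in line 1 and 636 and 609 in line 3, at -1.67 ± 0.13 (limma adjusted p = 1.81e-06). The related factor Etv5 was lower at -0.67 ± 0.11 and the ERK phosphatase Dusp6 at -0.52 ± 0.062, whereas the immediate early genes Egr1 and Fos, which ERK can also induce, were higher at the values given above. The adhesion gene Cdh2 was lower at -0.90 ± 0.16 and Lef1, a factor of Wnt signalling, higher at 0.84 ± 0.14. Fgf5, the classical primed marker, lay at the floor, with 5.92 and 2.16 in line 2, 37.9 and 23.3 in line 1 and 37.7 and 52.2 in line 3. That call did not hold in 5 of 21 alternatives.

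Ligands and targets of Nodal and BMP did not share a direction, with 8 of 22 higher and 4 lower. These were 36.4% and 18.2%, against 20.3% and 13.4% of all genes. Bmp4, a ligand that supports self-renewal with LIF, had signals of 81.7 and 86.5 in line 2, 255 and 269 in line 1 and 339 and 386 in line 3, at -1.74 ± 0.13 (limma adjusted p = 1.55e-06). Bmp7, of the same family, had 304 and 289.6 in line 2, 89.9 and 110.4 in line 1 and 81.1 and 103 in line 3, at 1.52 ± 0.19. The inhibitor Smad6 (1.18 ± 0.13), the repressor Skil (1.03 ± 0.055), Id2 (1.21 ± 0.086) and Ltbp3, which stores TGF-beta in the matrix (1.21 ± 0.13), were higher. The Nodal antagonists parted, Lefty1 at 0.62 ± 0.096 and Lefty2 at -0.75 ± 0.064, and the Lefty1 call was lost against line 1 alone. Of 19 genes of the LIF and STAT3 pathway 6 were higher and 3 lower (1 and 5 with centring), with its feedback inhibitors Socs3 (-0.44 ± 0.073) and Socs2 (-0.47 ± 0.052) lower and the kinase Pim1 higher (0.54 ± 0.062). The Socs3 call was lost without probe sets that can bind several transcripts (-0.15). Among 17 Wnt targets 4 were higher and 2 lower (23.5% and 11.8%), near the shares of all genes. The repressor Tcf7l1 was lower at -0.85 ± 0.11.

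Simple epithelial keratins and tight junction genes were higher in 10 of 21 and lower in 1, with a median of 0.42, though 7 were higher and 3 lower against line 1 alone. Krt7 had signals of 510.0 and 511 in line 2, 205 and 219.7 in line 1 and 105 and 105 in line 3, at 1.69 ± 0.14 (limma adjusted p = 2.41e-06). The junction protein gene Cldn7 had 2573 and 2449 in line 2, 1211 and 1149 in line 1 and 846 and 885 in line 3, at 1.30 ± 0.073. Krt19 had 438 and 334 in line 2, 271 and 228 in line 1 and 81.6 and 67 in line 3, at 1.40 ± 0.23, and its difference from line 1 was not called (limma adjusted p = 0.12). Tjp3 (1.30 ± 0.15), Cldn3 (1.17 ± 0.24) and Cldn4 (0.68 ± 0.06) were higher. Krt7 and Krt19 are also trophoblast markers, of which 4 of 16 were higher (25%, near the 20.3% of all genes) and 0 lower. The others were Tfap2c (0.62 ± 0.099) and Ascl2, a factor with signals of 277 and 295 in line 2, 46.9 and 81.1 in line 1 and 82.8 and 68.2 in line 3, at 1.89 ± 0.23. Neural markers were lower in 6 of 15 and higher in 2. Pax6, an early neural factor, had 52.4 and 49.9 in line 2, 138 and 130.1 in line 1 and 188 and 165 in line 3, at -1.39 ± 0.2, and Tubb3, a neuronal tubulin, was lower at -0.93 ± 0.16. The Pax6 call was lost as the mean of its probe sets (-0.70). Elavl3, which encodes a neuronal RNA-binding protein, was higher at 1.25 ± 0.18. Actin and tropomyosin genes were higher in 5 and lower in 5 of 28 (17.9% each, near the 20.3% and 13.4% of all genes), or 0 and 10 with centring.

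Imprinted genes, which are expressed from 1 parental allele and can be disturbed in iPS cells, were higher in 10 and lower in 10 of 36. These were 27.8% each, against 20.3% and 13.4% of all genes. Mest, expressed from the paternal allele, had signals of 635 and 679 in line 2, 1597 and 1528 in line 1 and 1932 and 1765 in line 3, at -1.36 ± 0.071 (limma adjusted p = 1.23e-07). Igf2r, expressed from the maternal allele, had 1576 and 1378 in line 2, 793 and 776 in line 1 and 656 and 577 in line 3, at 1.07 ± 0.087 (limma adjusted p = 2.55e-06). Neither overlapped the other lines. Rian and Mirg, non-coding RNAs of the Dlk1-Dio3 cluster, of which loss is known in some iPS lines, were above the floor on all 6 arrays. Rian had 2095 and 2204 in line 2, 2496 and 2617 in line 1 and 2909 and 2537 in line 3, at -0.29 ± 0.07, and Mirg differed by -0.60 ± 0.14. Rian was no longer called without the first line 2 array or without the variance trend, and Mirg without the second line 2 array. Of 26 germline genes 9 were higher and 4 lower (34.6% and 15.4%). Stra8, a meiosis entry gene (0.91 ± 0.083), and the receptor Kit (0.76 ± 0.083) were higher and Sycp1 of the synaptonemal complex lower (-1.13 ± 0.12). Of 5 Y-linked genes 0 were higher and 1, Uty, was lower (-0.50 ± 0.14). Its signals were 279 and 387 in line 2, 427 and 442 in line 1 and 559 and 458 in line 3. That call was lost as the mean of its probe sets, without the variance trend, against line 1 alone, without the first line 2 array and without the first line 3 array.

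Several genes of no list were among the extremes. Tspo2, a cholesterol-binding protein gene of erythroid cells, had signals of 179.6 and 233 in line 2, 18.7 and 6.93 in line 1 and 6.06 and 13.1 in line 3, at least 5.51-fold higher in line 2, where the bound sets line 2 against the floor of 37.1. Irf8, an interferon regulatory factor, had 119 and 119.8 in line 2, 4.85 and 20.3 in line 1 and 8.9 and 33.1 in line 3, at least 3.22-fold higher. Fxyd6, a regulator of the sodium pump, had 532 and 588 in line 2, 105 and 154 in line 1 and 67.9 and 50.3 in line 3, at 2.53 ± 0.2. On the other side Sall3, a zinc finger factor of the family of Sall4, had 11.6 and 12.8 in line 2, 145 and 92.9 in line 1 and 233 and 144 in line 3, at least 3.93-fold lower in line 2 (limma adjusted p = 1.36e-05). Slc6a15, a neutral amino acid transporter, had 152 and 139.6 in line 2, 552 and 502 in line 1 and 629 and 738 in line 3, at -1.95 ± 0.11 (limma adjusted p = 1.38e-07). The zinc transporter Slc39a14 and the oxidase Enox1 were lower at -1.74 ± 0.11 and -2.20 ± 0.18. The brightest genes with at least a 2-fold fall included the gap junction gene Gja1, with 4357 and 4462 in line 2, 8003 and 8842 in line 1 and 11202 and 10888 in line 3, at -1.13 ± 0.053. The corepressor gene Tle4 had 3094 and 3613 in line 2, 7109 and 7148 in line 1 and 7117 and 7128 in line 3, at -1.09 ± 0.066. Syncrip, which encodes an RNA-binding protein, had 3067 and 3401 in line 2, 7005 and 7083 in line 1 and 7551 and 8498 in line 3, at -1.21 ± 0.062. In each of the 8 genes with signals given here the line 2 arrays lay beyond all 4 arrays of the other lines. Tspo2 and Irf8 passed the filter on low signals only through line 2, so for them this position was fixed by the filter. Sall3 passed only through lines 1 and 3.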

How the data were processed

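RNA of 1 ES and 3 iPS lines, 2 arrays each, was measured on Affymetrix arrays. Per the submitters' processing notes the authors ran MAS5, and the deposited table holds a linear intensity for each probe set. No source used here gives its version or detection calls, and MAS5 signals of dim probe sets are noisy. The number of arrays limits the precision.

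Of 45101 probe sets, 64 were controls, 34945 had 1 gene symbol in the platform annotation, 932 several and 9160 none. Of those with 1 symbol, 34741 matched a RefSeq gene table by entrez identifier, and 0 symbols changed. Only probe sets with 1 symbol were used. Probe sets were kept if at least 2 of the 6 iPS arrays lay above 37.1, the floor set at the 40th percentile of signals, and the one with the highest mean log2 stood for its gene, which left 13570 of 18193 genes. Of the 13570 genes, 113 passed only through line 2, and 481 had no line 2 array above the floor. For the 113 the filter itself puts line 2 above the other lines. In the lists few members passed only through line 2 (1 each in the Wnt and fibroblast lists).

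Group means of all 8 arrays were fitted with limma 3.58.1 (R 4.3.3; lmFit and eBayes with a variance trend) on log2(signal + 12), with 4 residual degrees of freedom, 12.1 after moderation. Errors after ± are standard errors of that fit, for 2 arrays against 4. Adjusted p-values are Benjamini-Hochberg over all genes tested. Where the lower group lay at or under the floor, a lower bound of the fold is given. Each list is described by counts and median beside all genes, with no test of the list. Over all genes 20.3% were called higher and 13.4% lower, and counts near these shares do not set a list apart. On simulated data for line 2 against the mean, log2 changes of 0.25, 0.5, 1 and 2 in 50 genes each among 13570 were recovered in 18%, 44%, 58% and 96%, with 5 false calls. All other genes were drawn with no difference between lines, whereas 33.7% of genes were called in the data. These rates therefore do not carry over to the real comparison.

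The comparison and the lists were chosen with earlier results of these data known. Genes were named by rule, less clone names. The rule took the 14 largest differences in each direction among called genes with line 2 beyond all 4 arrays. Among the same genes it took the 4 with the widest gap between lines 1 and 3. It also took up to 4 called members of each of 39 lists by adjusted p (2 if none was called), 4 brightest genes in each direction and 9 fixed genes. A further 62 list members were named after their values were seen. Alternatives covered normalization, pseudocount, filter, probe set choice, variance model, replicate block, arrays used and leaving out each array.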

Additional observations from a re-analysis of the deposited data

How the results depend on the processing

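The count of 4576 calls for line 2 against the mean of lines 1 and 3 ranged from 3268 to 4428 (1852 to 2683 higher, 1390 to 1747 lower) when each of the 8 arrays was left out in turn. It was 2166 (1371 higher, 795 lower; 4114 at an unadjusted p under 0.05) with the 3 line means as samples, where 1 residual degree of freedom is left. With each array centred on its median 1666 genes were higher, and 4573 of the 4576 called genes kept their sign. Without the variance trend, calls were 3364 for line 2, 1985 for line 2 against line 1, 1372 for line 3 against the mean of lines 1 and 2, 25 for line 1 against line 3, and 0 for line 1 against the mean of lines 2 and 3 by limma; the cause was not tested. The mean of all probe sets gave 242 for that last contrast. Leaving out 1 array gave 2199 to 3221 calls for line 2 against line 1, 3293 to 4345 against line 3, 52 to 313 for line 1 against the mean, 1521 to 2556 for line 3 against the mean, and 51 to 188 for line 1 against line 3. Arrays with the same replicate number did not deviate together over all genes (correlations of 0.013 to 0.027). That compares only the difference between the 2 arrays of each line, so it cannot show whether the numbers pair arrays. With the number as a block 4608 genes were called, 4479 of them among the 4576. Of 241 named genes, 173 kept their sign and their side of the threshold in all alternatives except the line means. Signs turned for Sox2 (0.017) and Nanog (0.0085) under quantile normalization, for Hif1a (0.35), Jmjd1c (0.062) and Ndufb8 (-0.17) as means of all probe sets, and for Slc38a1 (0.15) and Snai2 (0.20) without probe sets that can bind several transcripts; leaving out 1 array gave -0.064 to 0.010 for Nanog and -0.081 to 0.029 for Sox2. The number of arrays, 2 per line, and signals near the floor of 37.1 limit the precision.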

Other observations

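The difference of line 2 was spread over the genome. The median log2 difference per chromosome lay between 0.0077 on the X chromosome (444 genes) and 0.12 on chromosome 15 (538 genes), and the share of genes called higher between 16.9% on the X chromosome and 26.6% on chromosome 12 (485 genes).

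Other probe sets of the same gene gave a second measure on the same arrays. They had passed the same filter and were ranked against the chosen one by mean log2, so they are not independent of that choice. For called genes with at least a 2-fold difference, 364 of 414 other probe sets (87.9%) had the same sign as the one used, for called genes under 2-fold 3526 of 4555 (77.4%), and for genes not called 3831 of 6310 (60.7%). Both summaries were chosen after seeing the data.

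Genes of thioredoxin, glutathione and metallothionein were higher in 5 and lower in 4 of 32 (15.6% and 12.5%), near the 20.3% and 13.4% of all genes. Txnip, which binds thioredoxin and limits glucose uptake, had signals of 4658 and 4164 in line 2, 2422 and 2399.7 in line 1 and 2097 and 1935 in line 3, a log2 difference of 1.00 ± 0.066, and Gsto1, a glutathione transferase, 2847 and 3569 in line 2, 5641 and 6099.8 in line 1 and 4921 and 5274 in line 3, a difference of -0.78 ± 0.079. Of 25 cytosolic and mitochondrial chaperones 3 were higher and 5 lower (12% and 20%), with the protease subunit Clpp at -0.43 ± 0.052 and the co-chaperone Dnaja1 at -0.43 ± 0.053. Among primitive endoderm markers 3 of 21 were higher (14.3%) and 1 lower (4.76%). Among markers of the primitive streak and mesendoderm 0 of 14 were higher and 1 lower (7.14%). Neither list exceeded the shares of all genes.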
